A study of Homo sapiens with 2 samples.

Results

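In RNA recovered with a catenin immunoprecipitation (IP), 59 splicing factor and RNA-binding protein genes had at least 1 peak, of 1658 gene symbols with a peak in all. They were chosen by symbol alone. The symbols begin with SRSF, SRRM, HNRNP, RBM, DDX, DHX, SF3, PRPF, SNRNP, LUC7L, CPSF, CSTF or CLK, or are SON, ACIN1 or PNISR. The study used the established breast cancer line MDA-MB-231, a human line of mesenchymal type, with 1 library titled B-catenin and 1 titled B-input. No treatment or genotype is given, and both libraries come from the same line. Per the labels' protocols, the RNA was sheared to fragments of about 300 to 500 bp, and the study's title states a screen for long noncoding RNAs that bind catenin. The peak list belongs to the IP library, and levels in the input were not analysed here. With 1 library, no value below has replicate error and no test between samples was possible.

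Splicing removes introns from pre-mRNA on the spliceosome, which is built from small nuclear ribonucleoproteins (snRNPs) and many further proteins. SR proteins, named for their serine-arginine repeats, and hnRNPs, which coat nascent RNA, help to choose splice sites, and DEAD-box and DExH-box helicases remodel the RNA-protein contacts. Many splicing proteins gather in nuclear speckles, around proteins such as SON and SRRM2. The values here concern the mRNAs that encode these proteins, not the proteins.

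The defining markers of the cell line were listed in part. Of 12 mesenchymal or basal markers 5 had a peak, EGFR and FN1 among them, and VIM and CD44 were among those with none. None of 10 luminal epithelial and 6 immune or blood markers had a peak. The file lists only regions that passed the authors' threshold, so an absent gene is one without a listed peak.

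Genes of splicing and RNA binding were often listed. Of 200 RefSeq protein-coding symbols that the naming rule matches, 58 (29.0%) had a peak, against 8.11% of all 20052 protein-coding symbols. The remaining gene, PRPF4B, is named PRP4K in that table. The share was 12 of 26 for HNRNP symbols, 4 of 8 for the group of SRRM genes, SON, ACIN1 and PNISR, and 6 of 16 for DHX. It was 11 of 38 for DDX, 12 of 53 for RBM and 2 of 12 for SRSF. Of the PRPF and SNRNP symbols 7 of 19 were listed, of LUC7L 2 of 3, of SF3 1 of 9 and of CPSF and CSTF 1 of 11. None of the 5 CLK symbols was listed, nor was PNISR. The rule also takes in readthrough names and testis genes, so the denominators hold genes that this line may not express. The same holds for the 20052 symbols, and expression in the line was not analysed. The part of expression in the difference between these shares was not tested.

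Of the 12 SRSF symbols 2 (16.7%) were listed, against 8.11% of all protein-coding symbols. SRSF1, SRSF2, SRSF3, SRSF5, SRSF6, SRSF7, SRSF8, SRSF9, SRSF10 and SRSF12 were not listed. Likewise HNRNPA2B1, HNRNPK, HNRNPL, HNRNPF and HNRNPH1 were not listed, while 12 other HNRNP genes were. DDX5 and DDX17, paralogous helicases that act in splicing, were not listed. PRPF8, which forms the core of the catalytic spliceosome, was not listed, whereas SNRNP200, the helicase that works beside it, was.

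Tags are sequenced fragments counted in a peak. For each gene the transcript with the most tags stands for it, tags per kb divide the tags by the length of its peaks, and the fold is the enrichment that the authors' peak caller gave to its highest peak. The 59 genes had 77 peaks with 6750 tags, 5.05% of the tags over all symbols (they are 3.56% of the symbols). Tags per gene ran from 11 to 463 with a median of 85, against 41 over all 1658 symbols. The median density was 47.2 tags per kb of peak against 29.8. The median fold was 7.51 against 7.56. At least 100 tags were carried by 27 of the 59 genes (45.8%), against 21.4% of all symbols, and a fold of at least 10 was reached by 20 (33.9%), against 30.3%. Without the HNRNP genes, 17 of 47 (36.2%) had at least 100 tags. These genes thus held more tags than the table as a whole, at about the same fold.

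**Figure D1:**
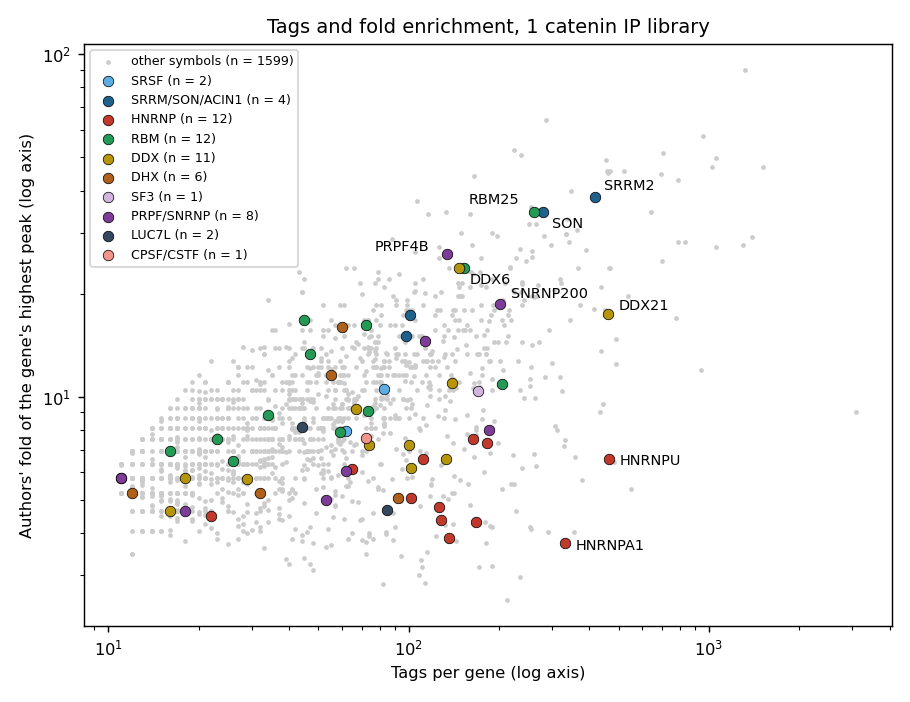
Each point is 1 gene symbol of the single catenin IP library, placed by its tags (x axis, log) and by the fold of its highest peak (y axis, log), with the 59 splicing and RNA-binding genes coloured by subfamily and the 1599 other symbols in grey. All 12 HNRNP genes lie at or below a fold of 7.51, while SRRM2, SON and RBM25 lie between 34.73 and 38.20.

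Highest by tags was HNRNPU, which encodes the scaffold attachment factor SAF-A, with 463 tags (exact 95% Poisson interval 422 to 507, counting error only). DDX21, a nucleolar helicase of ribosomal RNA processing, had 461 (420 to 505). SRRM2, a large speckle scaffold, had 416 (377 to 458), and the intervals of the 3 genes overlap. HNRNPA1 followed with 331 tags (296 to 369), below the interval of SRRM2. The order by fold was another one. SRRM2 stood at 38.20, RBM25 and SON both at 34.73, PRPF4B at 26.05, and DDX6 and RBM27 both at 23.73, while HNRNPU stood at 6.56 and HNRNPA1 at 3.73.

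The group of SRRM genes, SON and ACIN1, with roles in speckles and exon junctions, had the highest median fold of the subfamilies, 26.0. SRRM2 carried its 416 tags in a single peak of 6382 nt, at nt 558 to 6939 of ENST00000301740, the longest peak among the 59 genes. Its density was 65.2 tags per kb. SON, which holds speckles together, had 281 tags (249 to 316) in 5 peaks at 60.8 tags per kb. ACIN1, a subunit of the ASAP complex that joins the exon junction complex, had 101 tags (82.3 to 123) in 2 peaks with a fold of 17.36. SRRM1, a splicing coactivator rich in serine and arginine, had 98 tags (79.6 to 119) in 2 peaks with a fold of 15.05. All 4 genes of this group had a fold of at least 10. Of the SRSF genes, SRSF11 had 83 tags (66.1 to 103) at a fold of 10.50 and SRSF4 had 62 (47.5 to 79.5) at 7.93. Each had a single peak.

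The HNRNP mRNAs combined many tags with low folds. Among the 12 genes the median was 132 tags and 90.3 tags per kb, against 72 tags and 42.1 tags per kb for the other 47 genes. Their median fold was 4.91, against 8.13. At least 100 tags were reached by 10 of the 12, against 21.4% of all symbols, and a fold of at least 10 by 0 of the 12, against 30.3%. HNRNPA1, a splicing repressor, had the highest density of all 59 genes, 179 tags per kb (160 to 199), and ranked 7 of 1658. HNRNPC, which binds uridine tracts near splice sites, stood at 146 (125 to 170), with 167 tags at a fold of 4.30. HNRNPDL had 136 tags (113 per kb) at a fold of 3.87. HNRNPR had 183 tags at a fold of 7.33, and HNRNPUL1 164 tags at 7.51, the highest fold of the family. HNRNPAB, HNRNPD, HNRNPA3 and HNRNPM had 102 to 128 tags and folds from 4.37 to 6.56. HNRNPUL2 had 65 tags at a fold of 6.13, and HNRNPH3, with the fewest, 22 tags (13.8 to 33.3) at 4.49. With the transcript of highest fold in place of the one with the most tags, HNRNPUL1 and HNRNPM stood at 10.38 and 10.12, so 2 of the 12 then passed 10. HNRNPA1 and HNRNPC have near-identical copies elsewhere in the genome, and how the authors counted reads that match several copies is not stated in the labels or the file.

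The folds themselves came in steps. In 70.1% of the 2440 peaks over all symbols, the fold lay within 0.0051 of a whole multiple of 0.5788. Of the 77 peaks described here 27 (35.1%) did so. Among the HNRNP genes it was 0 of 13 peaks, and among the others 27 of 64 (42.2%). All peaks lay on multiples in 7 of 12 RBM genes and in 16 of the 59 genes, against 60.9% of all symbols. The file does not say how the fold was computed. Dividing tags per kb by the fold gives a median of 15.1 for the HNRNP genes, with a range from 5.38 to 48.0. It was 4.28 for the other 47 genes, with a range from 1.71 to 15.2, and 3.59 over all symbols. The quotient sets a density over whole peaks against a fold that may refer to the summit, so it describes the 2 columns and is not a measured background. Among the 59 genes SRRM2 had the lowest quotient and HNRNPA1 the highest, and over all symbols it ran from 1.04 to 121.

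**Figure D2:**
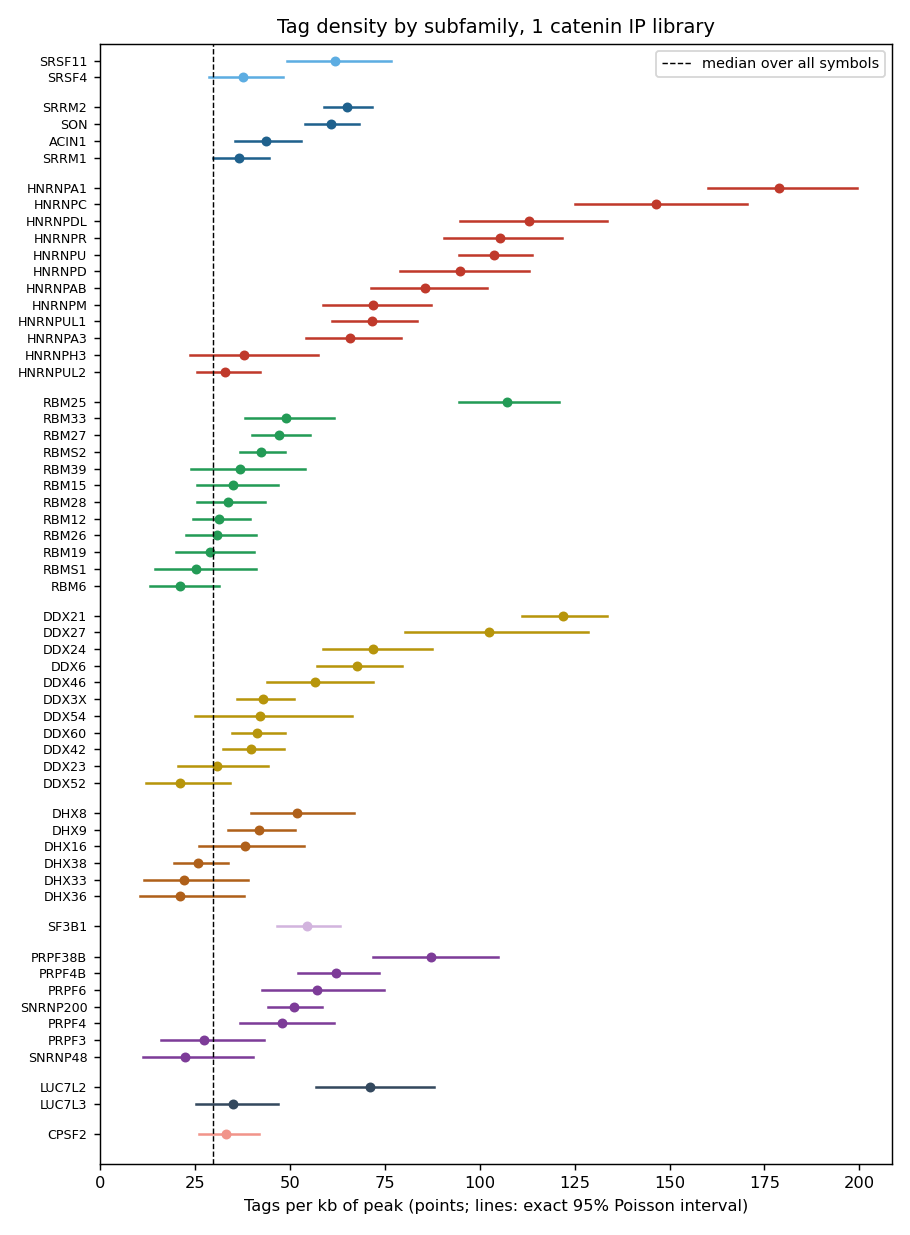
Tags per kb of peak (x axis, linear, from 0) for 58 of the 59 genes, grouped and coloured by subfamily, with points for the value and lines for the exact 95% Poisson interval of the 1 library. HNRNPA1 lies at 179 and HNRNPC at 146, and the dashed line marks the median of 29.8 over all symbols.

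Components of the U1 and U2 steps, in which the intron's ends are recognised, had 44 to 261 tags. RBM25, a U1-associated regulator of alternative splicing, had 261 tags (230 to 295) in a peak at nt 124 to 2558 of ENST00000261973, at 107 tags per kb. SF3B1, the branch-site binding subunit of the U2 snRNP, had 170 tags (145 to 198) in 2 peaks with a highest fold of 10.39. DDX42 and DDX46, helicases that associate with SF3B1, had 100 and 67 tags at folds of 7.23 and 9.17. LUC7L2 and LUC7L3, homologues of a yeast U1 protein, had 85 and 44 tags at folds of 4.67 and 8.13. All 6 of these genes had a first peak that began within the first 300 nt as listed, against 35.8% of all symbols. For DDX42 and LUC7L2 this rests on the rule for ties. On their other transcripts with equal tags the first peak began at nt 389 and 578, and at nt 459 and 592.

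Genes of the U4/U6.U5 tri-snRNP spanned a wide range. SNRNP200, which unwinds U4 from U6, had 202 tags (175 to 232) in 1 peak covering nt 109 to 4070 of ENST00000323853, with a fold of 18.66. PRPF4B, a kinase that acts on tri-snRNP proteins, had 134 tags (112 to 159) at nt 61 to 2216 of ENST00000337659, with a fold of 26.05. PRPF4 had 62 tags, PRPF6 53 and PRPF3 18, at folds of 6.04, 5.0 and 4.64. DDX23, the helicase of the U5 snRNP, had 29 tags (19.4 to 41.6) at a fold of 5.73. PRPF38B, a homologue of a yeast factor for spliceosome activation, had 113 tags (93.1 to 136) at a fold of 14.56 and 87.3 tags per kb. SNRNP48, of the minor U11/U12 snRNP, had the fewest tags of this group, 11 (5.49 to 19.7).

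The helicases that drive the catalytic steps and the release of the mRNA had 32 to 60 tags each. DHX8, which releases the spliced mRNA, had 60 tags (45.8 to 77.2) at a fold of 15.98. DHX38, which acts before the second catalytic step, had 55 tags (41.4 to 71.6) at a fold of 11.58, and DHX16, which acts before the first, 32 (21.9 to 45.2) at 5.22. Of the DHX genes with other roles, DHX9, RNA helicase A, had the most tags of the family, 92 (74.2 to 113), at a fold of 5.06. DHX33 had 12 tags and DHX36, which unwinds G-quadruplexes, 11 tags (5.49 to 19.7), both in single peaks.

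Outside splicing, DDX6, a decapping activator found in P-bodies, had 147 tags (124 to 173) in a peak at nt 81 to 2252 of ENST00000534980. DDX60, an interferon-inducible helicase, had 139 tags (117 to 164) in 2 peaks with a highest fold of 10.98, and DDX3X, which acts in translation initiation, 133 (111 to 158) in 2 peaks at 6.56. Genes of ribosome biogenesis other than DDX21, with DHX33 counted among them, had 12 to 102 tags. DDX24 had 102 tags, DDX27 74, RBM28 59, RBM19 34, DDX54 18 and DDX52 16 (9.15 to 26.0). Their folds ran from 4.63 to 8.86, and that of DDX21 was 17.47. DDX27 packed its tags into a peak of 723 nt, at 102 tags per kb.

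Among the RBM genes outside these groups, RBM27, linked to nuclear RNA decay, had 153 tags (130 to 179) in 2 peaks. Its paralogue RBM26 had 47 (34.5 to 62.5) in 2 peaks, with a highest fold of 13.31. RBMS2, which binds single-stranded nucleic acid, had 204 tags (177 to 234) in 3 peaks with a highest fold of 10.89, and its paralogue RBMS1 had 16 (9.15 to 26.0) at 6.95. RBM15, a subunit of the m6A methyltransferase complex, had 45 tags at a fold of 16.79, and RBM33 had 72 at 16.21. RBM12, RBM39 and RBM6 had 73, 26 and 23 tags, at folds from 6.49 to 9.06. Of the 12 RBM genes, 6 reached a fold of 10, against 30.3% of all symbols, and 3 reached 100 tags, against 21.4%, which is near their own share. CPSF2, a subunit of the complex that cleaves pre-mRNA for polyadenylation, had 72 tags (56.3 to 90.7) in 2 peaks with a highest fold of 7.59.

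Peaks of these genes often began at low listed positions. Positions and region labels disagree for some genes, as given below. A low position may therefore not always lie at the 5' end, which was not tested. The first peak began at a median of nt 187, against nt 486.5 over all symbols, and within 300 nt in 36 of the 59 genes (61.0%), against 35.8%. The limit of 300 nt was chosen after the values were seen. By subfamily the count was 9 of 11 for DDX, 8 of 12 for HNRNP, 7 of 12 for RBM and 1 of 4 for the group around SON and SRRM2. These counts depend on the transcript that stands for each gene and were not recomputed on others. On its listed transcripts with fewer tags, SON began at nt 1, 2, 9 and 502. ACIN1 began at nt 36 to 497 on its transcripts with fewer tags. SF3B1, PRPF3, DDX23, RBM27, HNRNPH3 and RBMS2 began at nt 3 to 7. At the other end, RBM15 began at nt 2367 and DDX52 at nt 4667. The number of tags moves with this position. Over all symbols the share was 55.6% among the 354 with at least 100 tags and 30.4% among the rest. Among the genes described here it was 18 of 27 and 18 of 32. The part of tag number in the result was not tested, and full transcript lengths are not in the file.

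**Figure D3:**
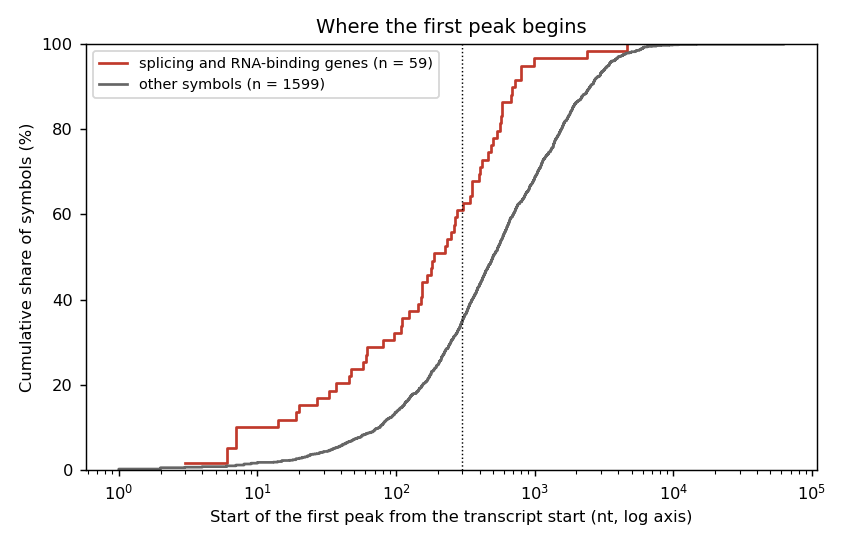
Cumulative share of symbols (y axis, percent) by the listed start of the first peak (x axis, nt, log). Curves are for the 59 splicing and RNA-binding genes and for the 1599 other symbols of the single IP library. The dotted line marks 300 nt, where the 2 curves stand at 61.0% and 34.9%.

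Most of the genes had 1 peak. There were 14 genes with 2 or more (23.7%), against 31.5% of all symbols. With peaks of a score of at least 50 the count was 9 of 49 genes, and at 100 it was 5 of 40. The score is a further column of the authors. The share over all symbols was not recomputed at these scores. SON had 5 peaks along ENST00000356577. The first, at nt 416 to 1068, held 68 tags with a fold of 34.73, and the last, at nt 5293 to 7766, held 176 tags with a fold of 24.88. The 3 peaks between them held 11 to 13 tags each at folds from 5.21 to 6.95. The tags of SON thus lay mainly at both ends of the listed stretch. In RBMS2 (ENST00000262031) the peaks at nt 3 to 2219, 2675 to 4658 and 7020 to 7618 held 108, 83 and 13 tags. HNRNPU (ENST00000444376) had 437 of its 463 tags at nt 168 to 3673 and 26 at nt 4460 to 5411, with folds of 6.56 and 6.51.

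In SF3B1 (ENST00000335508) the peak at nt 6 to 1447 held 91 tags at a fold of 10.39 and that at nt 2078 to 3756 held 79 at 4.67, so nearly equal tags came with unequal folds. In RBM27 (ENST00000265271) the peak at nt 7 to 1157 held 61 tags at a fold of 23.73 and that at nt 1442 to 3530 held 92 at 15.05. In RBM33 (ENST00000401878) 57 of 72 tags lay in the first peak, at nt 306 to 1119. The peaks of CPSF2 and those of DDX3X were separated by 32 nt each, the narrowest gap. First here means at the lowest listed position, which need not be the 5' end. The first peak had the most tags in 9 of the 14 genes (64.3%), against 53.6% of all symbols with several peaks. It had the highest fold in 10 (71.4%), against 50.2%. With 14 genes these shares rest on few cases.

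**Figure D4:**
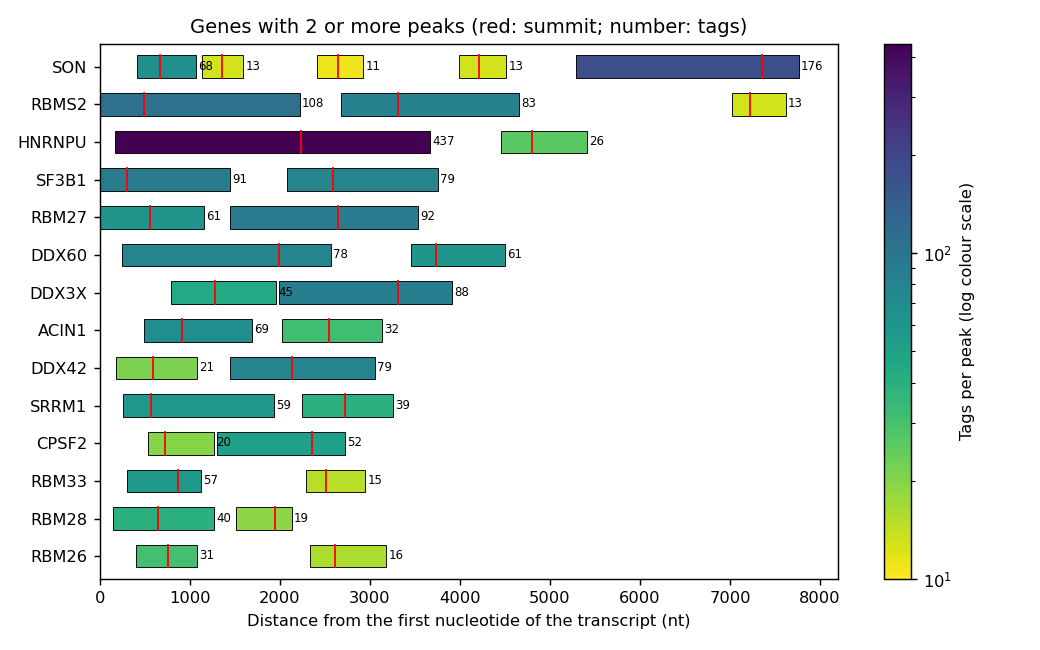
Peaks of the 14 genes with 2 or more, drawn to scale along the transcript that stands for each gene (x axis, nt as listed). Colour gives tags on a log scale, with the tags printed beside each peak and the summit as a red line. In SON the outer peaks hold 68 and 176 tags and the 3 inner ones 11 to 13.

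The authors' region labels put 19 of the 77 peaks in coding sequence alone (24.7%, exact Clopper-Pearson 95% interval 15.6 to 35.8%), against 39.7% of all peaks. With a score of at least 50 the share among the peaks of these genes was 15.5%, and at 100 it was 13.3%. The share over all peaks was not recomputed at these scores, so 39.7% is no counterpart for them. Peaks labelled as 3' untranslated and coding made up 22, those labelled 5' untranslated and coding 16, those labelled 3' untranslated alone 15 and those reaching both untranslated regions 5. Labels for the 3' end and listed positions disagree in part. Of 37 peaks with a 3' label, leaving out the 5 that reach both untranslated regions, 16 began within the first 300 nt as listed. The peak of SF3B1 at nt 6 was among them. Of 6 genes with both a 3' peak and a coding-only peak, 4 had the 3' peak at the lower position (ACIN1, DDX60, HNRNPU and RBM26). SON was the only gene with a 5' label and a coding-only peak, and its 5' peak lay at the lower position. Whether the labels or the direction of the positions is off was not tested.

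Several transcripts were listed for 34 of the 59 genes, 144 transcripts in all with those of the other 25 genes. In 14 of the 34 the highest tag count was at least 1.5 times the lowest, and in 9 all transcripts had equal tags. The median ratio was 1.20 and the largest, in DDX42, was 6.25, where the transcripts had 16, 55 and, in 3 cases, 100 tags. SON had 102, 110, 193, 200 and 281 tags on its 5 transcripts, with folds from 22.50 to 34.73. DDX6 had 36, 77 and, on 2 transcripts, 147. HNRNPC had 50 and 167 tags at folds of 4.52 and 4.30, so the tags differed more than the fold. HNRNPU had 283 to 463 tags. Listed transcripts of a gene share sequence, so they are not independent measurements. No peak of the 59 genes had the length, summit and tags of a peak of another symbol.

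**Figure D5:**
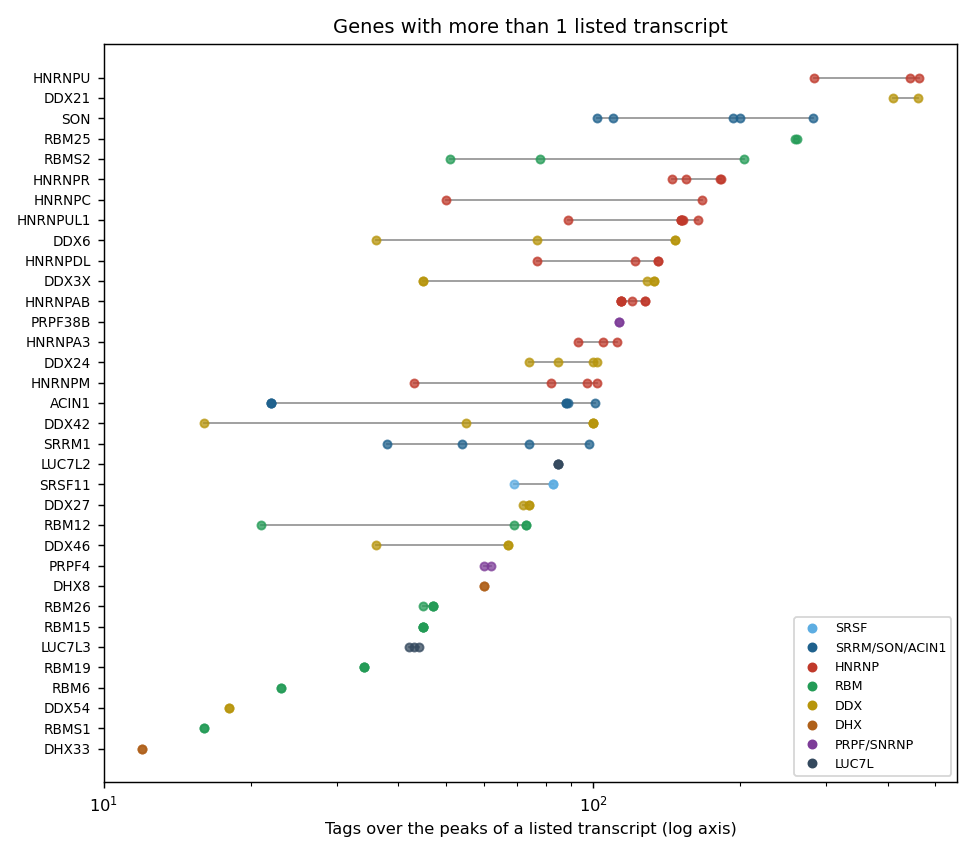
Tags over the peaks of each listed transcript (x axis, log), 1 row per gene, for the 34 genes with more than 1 listed transcript in the single IP library, coloured by subfamily. DDX42 spans 16 to 100 tags, while LUC7L2 and PRPF38B have the same tags on each transcript.

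In the authors' KEGG annotation, 28 symbols of the table (1.69%) belonged to the spliceosome pathway, and 21 of these were among the 59 genes. The 21 genes had a median of 101 tags and a median fold of 7.23. The other 38 had medians of 78.5 tags and 7.52. SON, SRRM1, SRRM2, PRPF4B and RBM27 were outside that pathway.

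Other genes of splicing, speckles, exon junctions and 3' end processing were listed as well. A list of 108 such genes with other names was chosen with earlier results of these data known. Of these, 40 (37.0%) had a peak, against 8.11% of all protein-coding symbols, and the part of expression was not tested. They had 16 to 270 tags (median 71), a median density of 40.8 tags per kb and folds from 3.79 to 34.04 (median 9.61). At least 100 tags were reached by 14 of the 40 and a fold of 10 by 18, against 21.4% and 30.3% of all symbols. The highest tag counts were those of THRAP3 (270, fold 21.17), ADAR (261, 19.53), MATR3 (254, 4.15), BCLAF1 (253, 11.26) and CDK12 (252, 31.84). THRAP3 and BCLAF1 are related proteins rich in serine and arginine, ADAR edits adenosine in double-stranded RNA, MATR3 is a nuclear matrix protein that binds RNA, and CDK12 is a kinase of RNA polymerase II. SREK1, an SR-related protein, had the highest fold of the list, 34.04 with 116 tags, and QKI, a regulator of alternative splicing, stood at 26.43 with 105. The kinases of SR proteins SRPK1 and SRPK2 had 76 and 23 tags at folds of 9.37 and 6.95. None of the 11 genes of the SNRP series, which encode Sm proteins and small snRNP proteins, was listed.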

How the data were processed

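RNA of a catenin IP from MDA-MB-231 was sequenced in 1 library, beside 1 input library. The deposited file of the IP lists peaks along Ensembl transcripts, with positions in nt counted from 1. Per the file headers, tags are a whole count for each peak. The fold is the ratio the authors' peak caller gave, and a further column of the authors, whose name was lost, is called the score and was used only as a filter. The submitters' processing notes name hg 18. The aligner, the caller, the annotation and the background library are not stated in the labels or the file. Total depth is unknown.

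For each symbol, the transcript with the most summed tags was used (ties went to the lowest identifier). A gene was named in full if it was among the 3 with the most tags or the 1 with the fewest in its subfamily, among the 5 highest by fold or tags per kb, or had at least 3 peaks. The other genes and the gene lists were described by value or range. The genes and lists were chosen with earlier results of these data known, and the role groups, the 300 nt limit and the fold multiples after the values were seen. Symbols were matched to RefSeq (GRCh38.p14) for names only. Of the 1658 symbols 1627 matched a protein-coding symbol, older symbols included. A few genes are counted but not described singly. Intervals are at 95% and cover counting error only. Sequence features of the encoded proteins, planned beforehand, were not analysed here. Scripts used Python 3.11.15, pandas 2.3.3, numpy 2.4.6 and scipy 1.17.1. They were tested on simulated data with known values. Alternatives were the transcript with the highest fold, score minimums of 50 and 100, a fold of at least 4, removal of the DDX and DHX genes, each transcript on its own and, added after the data were seen, removal of the HNRNP genes.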

Additional observations from a re-analysis of the deposited data

How the results depend on the processing

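No paired analysis was possible because the IP and the input are 1 library each, and only values of the IP were used. Across 7 alternatives, 8 summary values of the 59 genes were recomputed. Of the 56 values, 47 stayed close to the reported one (within 1.5 times, or for the coding share within its interval). The limit is wide, since a fall from 59 listed genes to 40 at a score of 100 still counts as close. The values over all symbols and all peaks were not recomputed. Counting each transcript on its own gave 144 units, of which 46 had a fold of at least 10, 59 had at least 100 tags and 31 had 2 or more peaks. That setting counts a gene once per transcript. Peaks with a score of at least 50 left 49 genes, 9 of them with 2 or more peaks, and a coding-only share of 15.5%. Those with a score of at least 100 left 40 genes, 5 of them with 2 or more peaks, and 13.3%. Removing the HNRNP genes left 17 genes with at least 100 tags. The 20 genes with a fold of at least 10 could not change in that setting, since none of them is an HNRNP gene. Genes with few tags, such as DHX36 and SNRNP48 at 11 each, have wide counting intervals.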
